A study of Rattus norvegicus with 6 samples.

Results

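Chemokine and cytokine transcripts were examined in the kidneys of rats with an induced model of focal segmental glomerulosclerosis (FSGS), in which segments of some glomeruli, the filters of the kidney, become scarred. The group held 7 genes of the 21986 in the expression table: the chemokines Ccl2, Ccl5, Cxcl1 and Cxcl10, the cytokines Il1b and Il6, and the receptor Tlr4. They were found by Ensembl gene ID, since the table holds no symbols, and each ID lay on the chromosome on which RefSeq places the gene of that name (7 of 7). Kidney RNA was sequenced from 3 control and 3 FSGS samples of male Wistar rats, all labelled wild type. The FSGS rats lost the left kidney and received adriamycin, an anthracycline toxic to glomerular cells, by tail vein, first 5 mg/kg (day 7 after the operation) and then 3 mg/kg (day 28). The sample titles call all 6 samples untreated, while the treatment field and the series' design text give these procedures. For controls only saline is stated and no operation, so nephrectomy and drug cannot be told apart. Ages are not given in the labels, which also leave unsaid whether the libraries come from separate rats. P-values therefore reflect only how far these samples spread, and that spread may be technical.

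Chemokines are small secreted proteins that draw leukocytes into tissue along a gradient. Ccl2 attracts monocytes through the receptor Ccr2, Ccl5 attracts T cells and monocytes, Cxcl1 attracts neutrophils through Cxcr2, and Cxcl10 is an interferon-induced ligand of Cxcr3 on activated T cells. Tlr4 senses bacterial lipopolysaccharide and molecules released by damaged tissue, and signals through NF-kappaB to switch on genes such as Il1b, Il6 and many chemokines. In injured kidney, tubular cells, endothelium, fibroblasts and infiltrating leukocytes can all make these molecules. In whole-kidney RNA, more cells of a type and more RNA per cell cannot be told apart. The kidney and leukocyte marker lists were not analysed here, because no table used here pairs their IDs with symbols, so the part of infiltrating cells in the values below was not tested.

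Promoter sequences are shown for Cxcl10 and Cxcl1, the members with the largest changes on the log2(FPKM + 1) scale, and for Il6, because each holds a match to the NF-kappaB motif. They are the 250 bases before the gene start in RefSeq (build GRCr8), 5′ to 3′ on the gene's strand. RefSeq sequences were matched for 5 of the 7 genes: Cxcl1, Cxcl10, Il1b, Il6 and Tlr4. Capitals mark matches to any of the motifs searched on both strands: the NF-kappaB motif, GAAANNGAA (an interferon response element core), TGANTCA (AP-1), TGACGTCA (cyclic AMP response element) and TTNNGCAAT (C/EBP). The motifs were chosen after the sequences were seen. Cxcl10 lies at chr14:15988816-15989065 on the plus strand, Cxcl1 at chr14:17479322-17479571 on the minus strand and Il6 at chr4:5894576-5894825 on the minus strand.
Cxcl10: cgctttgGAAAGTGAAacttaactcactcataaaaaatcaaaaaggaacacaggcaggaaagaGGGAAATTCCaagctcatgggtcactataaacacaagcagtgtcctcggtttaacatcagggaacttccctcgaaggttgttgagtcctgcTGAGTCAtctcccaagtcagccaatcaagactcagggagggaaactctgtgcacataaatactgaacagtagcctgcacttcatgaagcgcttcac
Cxcl1: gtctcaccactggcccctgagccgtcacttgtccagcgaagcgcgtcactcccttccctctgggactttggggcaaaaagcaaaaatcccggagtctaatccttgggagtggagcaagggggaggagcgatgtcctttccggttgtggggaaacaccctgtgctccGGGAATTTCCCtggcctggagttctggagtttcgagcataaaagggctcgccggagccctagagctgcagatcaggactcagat
Il6: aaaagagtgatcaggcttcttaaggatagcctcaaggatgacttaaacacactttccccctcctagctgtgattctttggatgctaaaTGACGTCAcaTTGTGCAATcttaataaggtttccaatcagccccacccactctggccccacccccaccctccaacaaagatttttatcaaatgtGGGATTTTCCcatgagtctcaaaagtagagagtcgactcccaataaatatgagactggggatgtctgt

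The NF-kappaB motif was in 3 of the 5 sequences and in 3.54% of the 33469 RefSeq promoters searched over the same length. The Cxcl1 run in capitals matched it on both strands, shifted by 1 base. Cxcl10 alone of the 5 held GAAANNGAA (8.12% of all promoters) and TGANTCA (6.34%). Il6 alone held TGACGTCA (1.59%) and TTNNGCAAT (2.04%). The Il1b and Tlr4 windows held no match. Since the motifs were chosen after the sequences were seen, the shares over all promoters give scale only and do not measure enrichment. A match describes letters and not a bound site, and no factor binding was measured here. In the RefSeq gene order, Cxcl10 sits between Cxcl11 and Cxcl9, Ccl2 lies next to Ccl7, Ccl11 and Ccl12, and Il1b next to Il1a. The levels of those neighbours were not analysed here.

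The question put to the data was whether these transcripts differ between FSGS and control kidneys. Levels are FPKM, that is, sequenced fragments scaled for the length of the gene and for the total of the library. Of the 7 genes, 6 were tested, since a mean of at least 0.5 FPKM over the 6 libraries was required. All 6 of these rose in FSGS by limma at adjusted p under 0.05, and 27.0% of the 14139 genes tested rose by the same rule. Among genes with a mean of 1 to 25 FPKM, where the 6 lie, 28.0% rose. An increase of at least 1 on the log2(FPKM + 1) scale was called in 5 of the 6, against 8.63% of all genes tested. As deposited, every FSGS value lay above every control value in 6 of the 6, and in 34.6% of all genes tested. For Il1b this did not hold with median-of-ratios scaling. The two-sided exact permutation p was 0.1 for each of the 6, the smallest that 3 against 3 allows. The median log2 change of the 6 was 1.27, with a range of 0.79 to 2.67, and that of all genes tested was 0.11. The members that passed the filter were fewer than the full list, and Cxcl1 passed it only through its FSGS values. The members were also chosen with earlier results of these data known. These counts therefore describe the list, and the shares over all genes are no test of it.

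**Figure D1:**
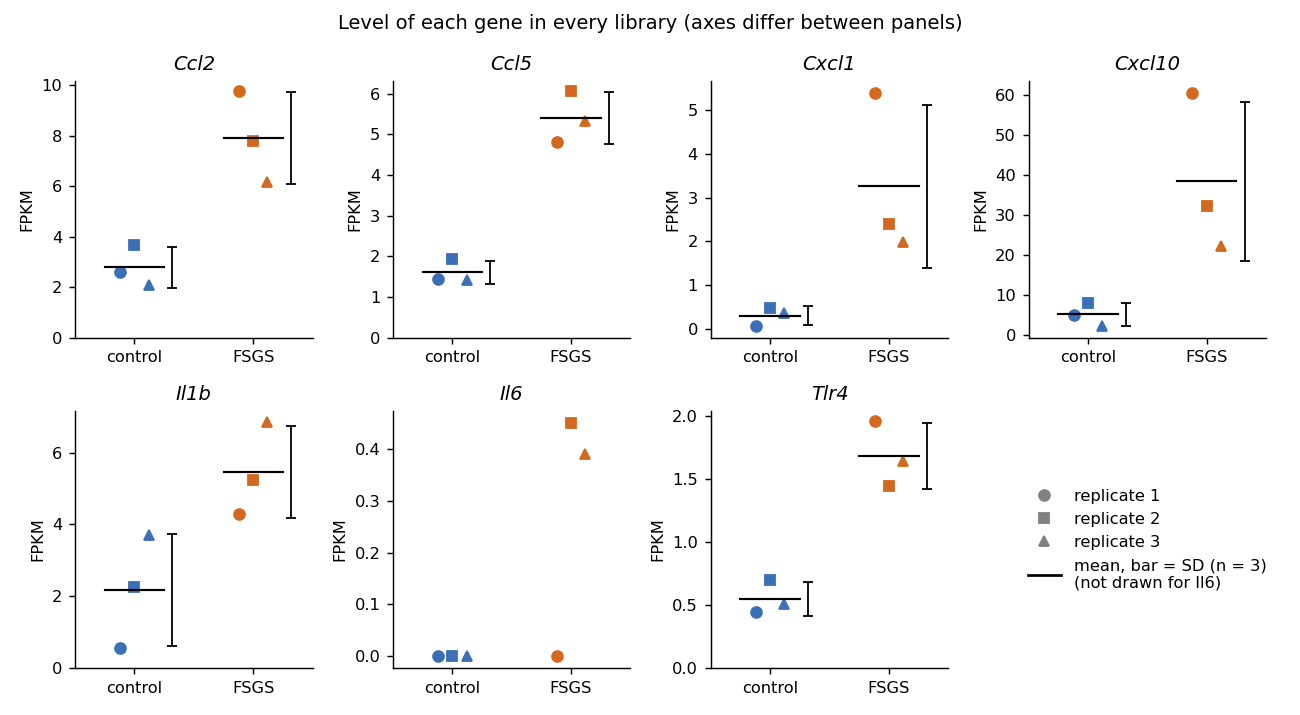
FPKM of each of the 7 genes in the 3 control and 3 FSGS libraries, with 1 panel per gene and different axes. Symbols are replicates, black lines are group means and bars are SD (n = 3), with neither lines nor bars drawn for Il6. The FSGS points lie above all control points in every panel but that of Il6, which was listed at 0 in 4 libraries.

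Cxcl10 (ENSRNOG00000022256, chromosome 14) had the highest mean of the members in both groups and their largest change on the log2(FPKM + 1) scale. In control 3, however, Il1b was higher (3.70 FPKM). Cxcl10 stood at 5.04, 8.16 and 2.36 FPKM in controls 1, 2 and 3, and at 60.59, 32.40 and 22.27 FPKM in FSGS 1, 2 and 3. The groups were far apart, and FSGS 1 was well above the other FSGS libraries. The means were 5.19 ± 2.90 and 38.4 ± 19.9 FPKM (SD, n = 3 each), a ratio of 7.41. The log2 change was 2.67 ± 0.41 (SE; 95% interval 1.73 to 3.61; limma adjusted p = 0.00109). It ranked 97 from the top among the log2 changes of the 14139 genes tested. In controls its mean lay above that of 50.0% of genes tested, and in FSGS above 91.5%. The lowest FSGS library exceeded the highest control by 2.73 times.

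Cxcl1 (ENSRNOG00000002802, chromosome 14) was the scarcest tested member in controls. Its control values were 0.06, 0.48 and 0.36 FPKM for replicates 1, 2 and 3, and it stood at 5.40, 2.40 and 1.98 FPKM in FSGS 1, 2 and 3. FSGS 1 was again the highest, and the groups did not overlap. The means were 0.30 ± 0.22 and 3.26 ± 1.87 FPKM, and the log2 change was 1.64 ± 0.28 (SE; limma adjusted p = 0.00172). The ratio of means, 10.9, was above that of Cxcl10, while the log2 change was below it, since adding 1 FPKM weighs most on the lowest values. With a pseudocount of 0.1 the log2 change of Cxcl1 was 3.13 and that of Cxcl10 was 2.91, so which of them changed most depends on the scale.

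Ccl2 (ENSRNOG00000007159, chromosome 10) stood at 2.60, 3.65 and 2.09 FPKM in controls 1, 2 and 3, and at 9.77, 7.77 and 6.17 FPKM in FSGS 1, 2 and 3. All FSGS libraries were higher than all controls, with FSGS 1 the highest. The means were 2.78 ± 0.80 and 7.90 ± 1.80 FPKM, a ratio of 2.84, and the log2 change was 1.24 ± 0.20 (SE; limma adjusted p = 0.00136).

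Ccl5 (ENSRNOG00000010906, chromosome 10), the other CC chemokine, had the smallest adjusted p of the members. It stood at 1.44, 1.94 and 1.43 FPKM in controls 1, 2 and 3, and at 4.81, 6.07 and 5.32 FPKM in FSGS 1, 2 and 3. The libraries of each group lay close together, and FSGS 1 was here the lowest of its group. The means were 1.60 ± 0.29 and 5.40 ± 0.63 FPKM, a ratio of 3.37, and the log2 change was 1.30 ± 0.14 (SE; limma adjusted p = 0.000218). The highest FSGS library was 1.26 times the lowest, against 2.72 times for Cxcl10 and 2.73 times for Cxcl1.

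Il1b (ENSRNOG00000004649, chromosome 3) encodes the precursor of interleukin-1 beta, which a protease must cut before release, a step that RNA does not show. It stood at 0.56, 2.26 and 3.70 FPKM in controls 1, 2 and 3, and at 4.30, 5.25 and 6.84 FPKM in FSGS 1, 2 and 3. As deposited the groups did not overlap, but control 3 and FSGS 1 were close, and control 1 was far below the other controls. Median-of-ratios scaling divides control 3 by 0.86 and FSGS 1 by 1.12, which puts control 3 above FSGS 1, so the groups then overlap. The means were 2.17 ± 1.57 and 5.46 ± 1.28 FPKM, a ratio of 2.51, and the log2 change was 1.15 ± 0.36 (SE; 95% interval 0.34 to 1.96; limma adjusted p = 0.0289). The SD of its control values on the log2(FPKM + 1) scale was above that of 99.2% of genes tested. This call was lost without FSGS 2 (limma adjusted p = 0.0576) or FSGS 3 (0.0780), with median-of-ratios scaling (0.0782), with quantile normalization (0.0967) and with no filter (0.0772). Without control 1 the log2 change was 0.70 (limma adjusted p = 0.0453).

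Il6 (ENSRNOG00000010278, chromosome 4), a cytokine of the acute phase response, was listed at 0 FPKM in all 3 controls and in FSGS 1. It was listed at 0.45 and 0.39 FPKM in FSGS 2 and 3. Its mean over the libraries was 0.14 FPKM, under the minimum, so it had no test in the main analysis. With no filter it did not pass (limma adjusted p = 0.115), and the groups overlapped at 0. No fold is given against a group listed at 0, because a 0 in such a table may also come from an estimate that failed. FSGS 1, the library with the highest Cxcl10, Cxcl1 and Ccl2, was the FSGS library in which Il6 was listed at 0.

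Tlr4 (ENSRNOG00000010522, chromosome 5), the receptor of the group, had the smallest log2 change of the 6. It stood at 0.44, 0.70 and 0.51 FPKM in controls 1, 2 and 3, and at 1.96, 1.44 and 1.64 FPKM in FSGS 1, 2 and 3. The groups were clearly separate, and the lowest FSGS library was 2.06 times the highest control. The means were 0.55 ± 0.13 and 1.68 ± 0.26 FPKM, and the log2 change was 0.79 ± 0.14 (SE; limma adjusted p = 0.00232). The ratio of means was 3.05, which lies between those of Ccl2 and Ccl5, and the pseudocount of 1 weighs more on its low level than on theirs.

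**Figure D2:**
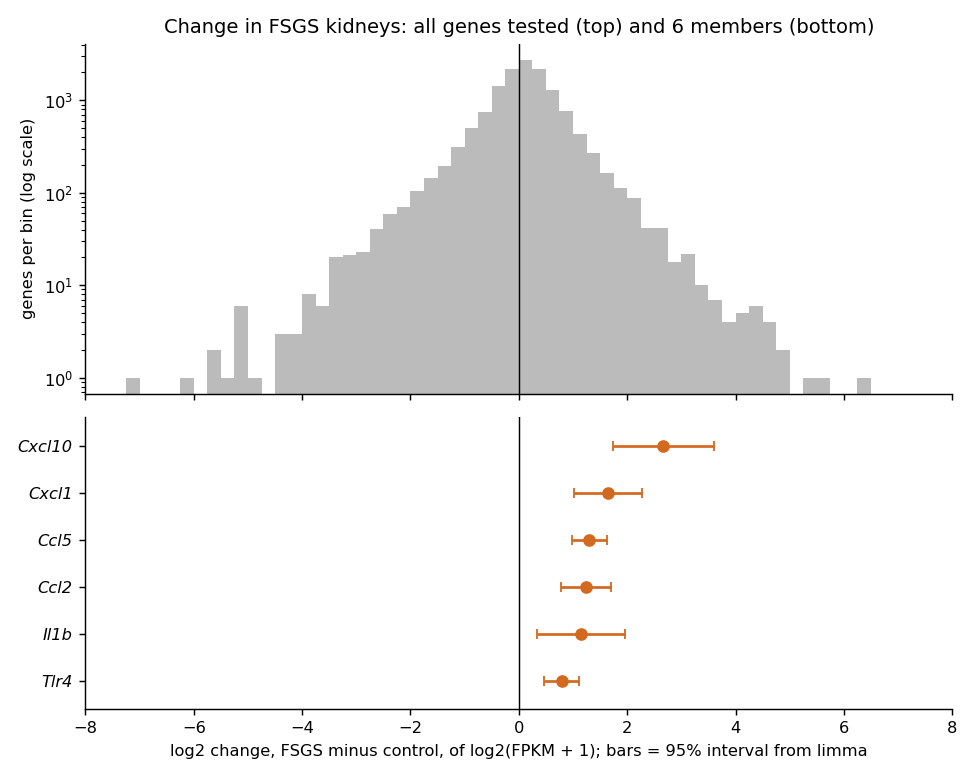
Top, the number of genes (log axis) per bin of log2 change over the 14139 genes tested. Bottom, the log2 change of the 6 tested members with 95% limma intervals, on the same horizontal axis (FSGS minus control, log2(FPKM + 1)). All 6 intervals lie above 0, with Cxcl10 at 2.67 and Tlr4 at 0.79.

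No tested member changed direction under any of the 19 alternatives, while the sizes of the changes moved with the pseudocount. With a pseudocount of 5 the log2 changes were 2.03 for Cxcl10, 0.73 for Ccl2, 0.65 for Ccl5, 0.62 for Cxcl1, 0.56 for Il1b and 0.27 for Tlr4. With a pseudocount of 0.1 that of Tlr4 was 1.46. FPKM columns were not of equal size: they summed to between 614047 and 691777 in controls and between 754892 and 824403 in FSGS. Mitochondrial transcripts took 51.6% to 62.9% of the control sums and 64.0% to 71.7% of the FSGS sums. As deposited 3814 genes rose and 2408 fell. These counts were 3465 and 3493 with median-of-ratios factors, 2012 and 3191 on rescaling to TPM, and 6015 and 2144 after rescaling by the total without mitochondrial and the 20 most abundant genes. Under these the tested genes had a median log2 change of 0.01, -0.12 and 0.26. Relative to the median of all genes as deposited, the log2 change was 2.56 for Cxcl10, 1.53 for Cxcl1, 1.19 for Ccl5, 1.13 for Ccl2, 1.04 for Il1b and 0.68 for Tlr4. Ccl2, Ccl5, Cxcl1, Cxcl10 and Tlr4 stayed past the threshold under all scalings tried and without any 1 library.

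**Figure D3:**
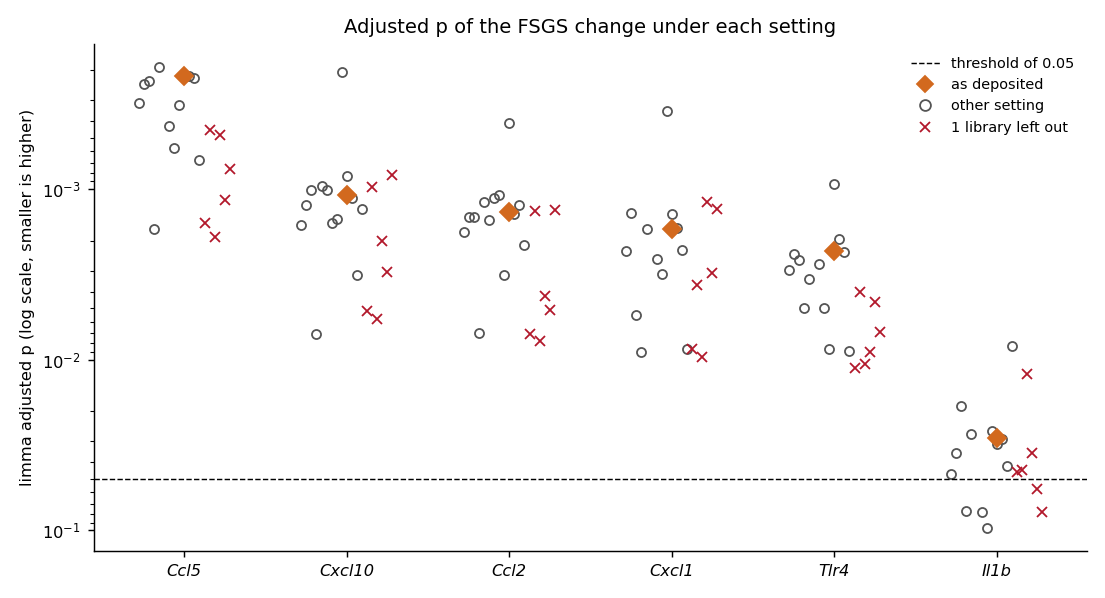
Limma adjusted p (log axis, smaller values higher) of the FSGS change of each tested member, as deposited (diamond), under other settings (circles) and with 1 library left out (crosses). Ccl5, Cxcl10, Ccl2, Cxcl1 and Tlr4 lie above the dashed line at 0.05 throughout, while 5 of the points of Il1b lie below it.

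The chemokine ligands were then compared with each other. Their summed level was 9.14, 14.23 and 6.24 FPKM in controls 1, 2 and 3, against 80.57, 48.64 and 35.74 FPKM in FSGS 1, 2 and 3. Cxcl10 made up 55.1%, 57.3% and 37.8% of that sum in controls 1, 2 and 3, against 75.2%, 66.6% and 62.3% in FSGS 1, 2 and 3. Its share was thus higher in each FSGS library than in any control. The share of Ccl2 was 25.7% to 33.5% in controls and 12.1% to 17.3% in FSGS, and the groups did not overlap. That of Ccl5 was 15.8%, 13.6% and 22.9% in controls 1, 2 and 3, against 5.97%, 12.5% and 14.9% in FSGS 1, 2 and 3, so control 2 lay below FSGS 3. The share of Cxcl1 was 0.66% to 5.77% in controls and 4.93% to 6.70% in FSGS, which also overlapped. FPKM is a level per length of gene, which allows such sums between genes, but RNA shares are not protein shares.

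**Figure D4:**
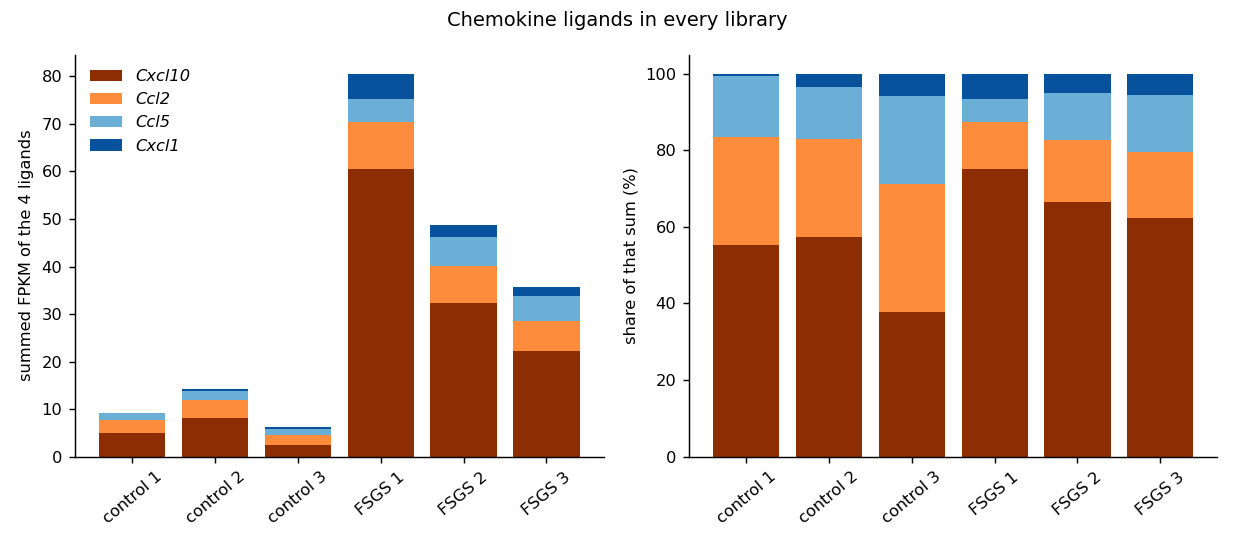
Left, FPKM of Cxcl10, Ccl2, Ccl5 and Cxcl1 stacked for each library. Right, the same as a share of their sum (%). Cxcl10 is the largest segment in all 6 libraries and takes 62.3% to 75.2% in FSGS against 37.8% to 57.3% in controls.

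Ratios within a library are free of any single scaling factor of its column when no pseudocount is added. Cxcl10 was 1.94, 2.24 and 1.13 times Ccl2 in controls 1, 2 and 3, and 6.20, 4.17 and 3.61 times Ccl2 in FSGS 1, 2 and 3. The Cxcl10 to Ccl2 ratio was therefore higher in every FSGS library than in any control. Cxcl1 was 0.14, 0.69 and 0.71 times Tlr4 in controls 1, 2 and 3, and 2.76, 1.67 and 1.21 times Tlr4 in FSGS 1, 2 and 3. Cxcl1 was the lower of this pair in every control and the higher in every FSGS library. However, Cxcl1 passed the filter only through its FSGS values, which favours such a pattern. Its control values of 0.06, 0.48 and 0.36 FPKM were also very low. The ratio of Cxcl10 to Ccl5 was 3.50, 4.21 and 1.65 in controls, against 12.6, 5.34 and 4.19 in FSGS 1, 2 and 3, so control 2 and FSGS 3 overlapped narrowly.

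Of the 15 pairs of tested members, 6 had log2 ratios that did not overlap between the groups with a pseudocount of 1, and 6 with none. Only 3 pairs did so both ways: Ccl2 with Cxcl10, Cxcl1 with Tlr4, and Cxcl10 with Tlr4. For each the two-sided exact permutation p was 0.1, the smallest that 3 against 3 allows, and the Benjamini-Hochberg value over the 15 pairs was 0.25. This permutation test cannot pass a threshold of 0.05 with 3 against 3, and no model-based test of the ratios was run. The share of pairs without overlap among all genes tested was not calculated. Whether 6 of 15 is more than usual was therefore not tested. With a pseudocount of 1, the log2 ratio of Ccl2 to Ccl5 differed by -0.06 between FSGS and control (exact permutation p = 0.8). This was less than the SD within either group (0.16 and 0.38). For Ccl2 to Il1b the difference was 0.09 against SDs of 0.91 and 0.58 (exact permutation p = 1), and for Ccl5 to Il1b it was 0.15 against 0.80 and 0.27 (exact permutation p = 0.8). Without a pseudocount, the Ccl2 to Ccl5 difference was -0.24 (exact permutation p = 0.4). That was larger in size than the control SD of 0.20, though below the FSGS SD of 0.43. The Cxcl1 to Cxcl10 ratio fell by 1.03 with a pseudocount of 1 and was 0.82 higher with none, so its direction depends on the scale.

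**Figure D5:**
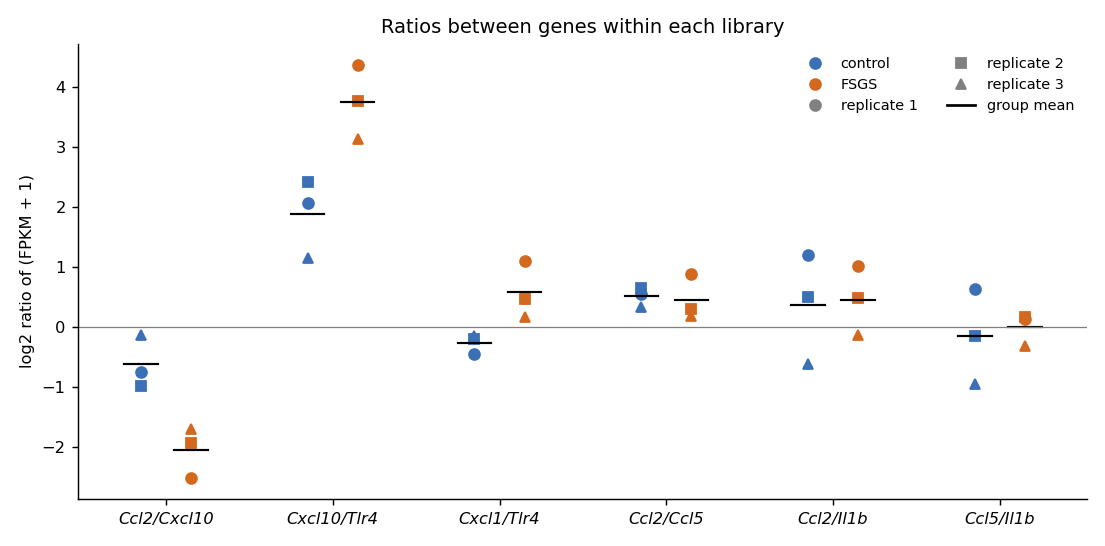
Log2 ratio of (FPKM + 1) between 6 pairs of genes in each library, with control in blue, FSGS in orange, symbols for replicates and black lines for group means. The groups are apart for Ccl2/Cxcl10, Cxcl10/Tlr4 and Cxcl1/Tlr4, and overlap for Ccl2/Ccl5, Ccl2/Il1b and Ccl5/Il1b.

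The order of the levels was Cxcl10, Ccl2, Il1b, Ccl5, Tlr4, Cxcl1 in the control means. Among neighbours in that order, the ranges of control values overlapped for Cxcl10 and Ccl2, Ccl2 and Il1b, Il1b and Ccl5, and Tlr4 and Cxcl1. Ccl5 and Tlr4 did not overlap. In the FSGS means the order was Cxcl10, Ccl2, Il1b, Ccl5, Cxcl1, Tlr4. There Cxcl10 stood clear of Ccl2, and Cxcl1, with a lowest value of 1.98 FPKM, stood just above the highest Tlr4 value of 1.96 FPKM. The neighbours from Ccl2 down to Cxcl1 overlapped.

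The FSGS libraries did not rank alike for all members. FSGS 1 was highest for Ccl2, Cxcl1, Cxcl10 and Tlr4, FSGS 2 for Ccl5 and Il6, and FSGS 3 for Il1b. Among the 3764 genes that both rose by limma at adjusted p under 0.05 and had every FSGS value above every control value, FSGS 1 was the highest library in 45.4%, FSGS 2 in 34.8% and FSGS 3 in 19.9%. Without FSGS 1 the log2 change was 2.29 for Cxcl10, 1.31 for Cxcl1 and 1.09 for Ccl2, and all 3 stayed past the threshold (limma adjusted p = 0.00202, 0.00118 and 0.00420). On the first principal component of all genes tested, FSGS 1 lay nearest the controls, at 42.4 against 51.6 and 55.3 for FSGS 2 and 3.

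Patterns over the 6 libraries were compared by Pearson correlation of log2(FPKM + 1), which here reflects mostly the difference between 2 groups and carries no test. Ccl2 and Cxcl10 were most like each other among the members (r = 0.996), and Cxcl10 ranked 12 among all other genes tested by its likeness to Ccl2. The gene most like each of these was the same, ENSRNOG00000020617 on chromosome 1 (r = 0.999 with each), which averaged 3.75 FPKM in controls and 5.72 FPKM in FSGS. Il1b stood apart: its r with the other tested members was 0.560 to 0.767, highest with Ccl5. Only 13 genes reached an r of 0.95 with Il1b, whereas 450 did with Cxcl1 and 1291 to 1575 with Ccl2, Ccl5, Cxcl10 and Tlr4. The gene most like Il1b was ENSRNOG00000007493 on chromosome 4 (r = 0.983). Its level was low, near the filter of 0.5 FPKM, with means of 0.45 FPKM in controls and 0.67 FPKM in FSGS.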

How the data were processed

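Kidney RNA from 3 control and 3 FSGS samples was measured. Libraries were poly(A)-selected, stranded by dUTP and read from both ends, per the labels' protocols. DESeq2, edgeR, StringTie 2.1.6, HISAT2 2.2.1 and cutadapt 1.9 are listed, without roles, per the submitters' processing notes; genome build and annotation are not given in the sources used here. Per the file headers, the authors deposited FPKM, written with at most 2 decimals. An FPKM is a share of its library, so a rise in abundant transcripts lowers others. Ratios of low values showed no steps of whole reads (at most 12.8% of 16 to 136 genes within 0.05 log2), so the depth stays unknown and counting intervals were left out. All 6 sample columns were used, matched by the names in the description field.

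Genes with a mean of at least 0.5 FPKM (14139 of 21986) were transformed as log2(FPKM + 1) and fitted with limma 3.58.1 in R 4.3.3, with group alone, a mean-variance trend and Benjamini-Hochberg adjustment over all genes tested. The fold on this scale understates the change of low genes. The procedure was tested on simulated data, drawn separately for each gene and without differences in column scale. That test therefore does not bear on the scaling of the columns. Single values and ratios were tested by exact permutation, two-sided, in scipy 1.17.1; figures used matplotlib 3.10.9. Every member was named, whatever its value; the genes most like a member were ranked by Pearson r. The members, motifs and lists were chosen with earlier results of these data known. Gene lists and cell type markers by symbol were not analysed here, since 0 of 47357 RefSeq rows carried an Ensembl ID. In all, 19 alternatives were tried: pseudocount, filter, column scaling, limma options, replicate block and leaving out each library.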

Additional observations from a re-analysis of the deposited data

How the results depend on the processing

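Ccl2, Ccl5, Cxcl1, Cxcl10 and Tlr4 kept their direction and call under each of the 18 or 19 alternatives that gave a value; with a mean of at least 5 FPKM required, only Ccl2 and Cxcl10 were tested. Il1b kept its direction in all 18 and its call in 13. It missed the threshold with no filter (log2 change 1.15, limma adjusted p = 0.0772), median-of-ratios scaling (1.03, 0.0782) and quantile normalization (0.98, 0.0967). Leaving out single libraries its log2 change ran from 0.70 to 1.5, with 1.16 without FSGS 2 and 1.00 without FSGS 3, where the call was lost. The cause was not tested. Genes called numbered 3672, of which 2068 rose, at a mean of at least 5 FPKM, where fewer were tested. The number that rose was 2012 after rescaling to TPM, and 6015 when the 20 most abundant and the mitochondrial genes were left out of the column totals. Log2 ratios between members changed sign in 13 cases. The permutation test used for them cannot go below 0.1 with 3 against 3, and it gave no value below 0.2 with 1 library left out. With a pseudocount of 0.1 the differences were -0.11 for Ccl2/Il1b and 0.22 for Cxcl1/Cxcl10, and with none -0.16 for Ccl2/Il1b, -0.11 for Ccl2/Tlr4 and 0.82 for Cxcl1/Cxcl10. Leaving out single libraries, the difference ran from -0.28 to 0.078 for Ccl2/Ccl5, from -0.40 to 0.51 for Ccl2/Il1b, from -0.55 to 0.060 for Ccl5/Cxcl1, from -0.25 to 0.55 for Ccl5/Il1b and from -0.033 to 0.73 for Il1b/Tlr4. A fit with the replicate block called 6900 genes and changed no call of a member (Il1b: limma adjusted p = 0.00835). Same-numbered libraries deviated together only weakly (r = 0.13, 0.03 and 0.02), so the numbers were not taken as pairs. Depth, and so its limit on Il6 and Cxcl1, is unknown.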
